A study of Mus musculus with 3 samples.

Results

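The 10 genes described here are P2ry12, P2ry13, Tmem119, Siglech, Gpr34, Cx3cr1, Sall1, Crybb1, Slc2a5 and Selplg, which mark homeostatic microglia, the resting state of the resident macrophages of the brain. They were taken by symbol from the 31053 genes of a single-cell RNA sequencing (scRNA-seq) matrix of mouse brain, and each symbol had 1 row. They were chosen from earlier values of the same matrix, in which they were high in microglia and lower where Cst7, the gene of a cystatin made by activated microglia, was detected, so their levels are given as a description with no test. All 10 members were detected, and none was lost to a filter on low values.

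The libraries came from brain tissue of 10-week-old mice, whose strain the labels give as C56BL6, under 3 conditions: a control, ischemic stroke made by occlusion of the middle cerebral artery, and hemorrhagic stroke made by injecting collagenase. Tissue of several mice went into each library, there was 1 library per condition, and the sources read here do not state how long after stroke these cells were taken. The matrix holds 35968 barcodes that end in a suffix of 1, 2 or 3, and no label ties a suffix to a condition. Each suffix is therefore treated as an unlabelled library (library 1, 2 and 3), no condition is assigned to any cell, and a difference between libraries cannot be told apart from one of animals or handling.

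The libraries held 10140, 15190 and 10638 barcodes, with 69270514 to 105957232 unique molecular identifiers (UMIs, each counting 1 captured RNA molecule) in all. Barcodes with at least 1000 UMIs and at most 30% of UMIs from mitochondrial genes were kept, which left 31982. A kept cell was taken as a microglia where C1qa, C1qb and C1qc, which encode the chains of complement C1q, made up at least 0.5% of its UMIs, and 12800 cells met this rule. Of these, 272 also passed a gate for border macrophages (at least 3 of 9 macrophage marker genes detected, with at least 0.1% of UMIs) and were set apart, leaving 12528 microglia, with 3648, 6489 and 2391 in library 1, 2 and 3. Further microglial markers were detected in these cells, with Cst3 at 24338 CPM (UMIs of a gene per 1000000 UMIs, both summed over a group of cells), Trem2 at 2947 CPM and Olfml3 at 600.0 CPM, against 7901, 1299 and 114 CPM in the 287 cells of the macrophage gate. The macrophage markers summed to 119 CPM in the microglia and to 4541 CPM in the gated cells, a difference set by the gate, which used these same genes. Of the 9 markers, 8 had UMIs in the microglia, and Lyve1 had 0. Of the microglia, 8.39% were called doublets and 13% passed the gate of another cell class, and both shares were highest in library 3 (12% and 28.0%). Microglia of different libraries shared from 1 to 9 barcode sequences.

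Homeostatic microglia watch over the brain with fine moving processes, and most of the members encode proteins of the cell surface that serve this work. P2ry12 and P2ry13 are receptors for nucleotides such as ADP, Cx3cr1 is the receptor for the chemokine fractalkine that neurons carry, and Gpr34 responds to lysophosphatidylserine. Siglech is a sialic acid-binding lectin that signals through the adaptor Tyrobp, Tmem119 is a membrane protein widely used as a microglial marker, and Selplg encodes the selectin ligand PSGL-1. Slc2a5 encodes the fructose transporter GLUT5, Crybb1 encodes a beta crystallin best known from the lens, and Sall1 is a transcription factor that helps to maintain microglial identity. In injury and disease, microglia commonly lower these genes while they raise others such as Apoe, Spp1 and Cst7.

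The members lie on 7 chromosomes of the mouse build GRCm38, with 2 pairs of close neighbours. P2ry13 (chr3:59207892-59210882) and P2ry12 (chr3:59216272-59262871) are both on the minus strand with 5389 bases between them, and both lie inside the span of Med12l (chr3:59005825-59318682) on the other strand. Tmem119 (chr5:113793729-113800516) and Selplg (chr5:113818536-113832644) are 18019 bases apart on the minus strand, and Crybb1 (chr5:112255815-112269585) is on the plus strand of the same chromosome. The sources read here do not say whether reads were counted by strand. Whether reads of Med12l entered the counts of the 2 purinergic receptor genes was not tested. The other members are Siglech (chr7:55768178-55778925), Gpr34 (chrX:13632089-13640858), Cx3cr1 (chr9:119901616-120069879), Sall1 (chr8:89027235-89044162) and Slc2a5 (chr4:150119283-150144169).

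Because the members were lower together, the 250 bases before the RefSeq start (GRCm38.p6) are shown for the neighbours P2ry12 and P2ry13, for Siglech and Cx3cr1, and for Slc2a5, whose difference was the largest. Each sequence is written 5′ to 3′ on the strand of its gene, and capitals mark letters searched on both strands. These are GAGGAA (a core of sites of PU.1, an ETS factor of macrophages), GGAAGT (an ETS-type core) or CTA, any 4 bases and TAG. The last, called the loose MEF2 letters here, is wider than the MEF2 site, in which the 4 middle bases are A or T. The windows are chr3:59262986-59263235, chr3:59210883-59211132, chr7:55767934-55768183, chr9:120068297-120068546 and chr4:150119094-150119343, in the order of the lines.
P2ry12: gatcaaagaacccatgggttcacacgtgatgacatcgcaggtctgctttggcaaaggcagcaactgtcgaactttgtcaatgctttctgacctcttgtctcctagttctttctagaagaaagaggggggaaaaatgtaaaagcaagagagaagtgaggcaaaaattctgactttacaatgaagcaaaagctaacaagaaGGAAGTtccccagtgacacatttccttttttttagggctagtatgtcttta
P2ry13: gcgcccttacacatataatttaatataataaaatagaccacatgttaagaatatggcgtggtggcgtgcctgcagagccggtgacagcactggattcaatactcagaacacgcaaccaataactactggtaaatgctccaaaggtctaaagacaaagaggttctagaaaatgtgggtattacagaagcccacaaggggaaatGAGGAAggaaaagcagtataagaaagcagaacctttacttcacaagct
Siglech: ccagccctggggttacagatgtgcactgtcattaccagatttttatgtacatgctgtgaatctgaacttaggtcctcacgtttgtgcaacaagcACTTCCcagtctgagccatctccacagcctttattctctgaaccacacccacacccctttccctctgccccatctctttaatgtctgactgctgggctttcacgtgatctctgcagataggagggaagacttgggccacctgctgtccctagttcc
Cx3cr1: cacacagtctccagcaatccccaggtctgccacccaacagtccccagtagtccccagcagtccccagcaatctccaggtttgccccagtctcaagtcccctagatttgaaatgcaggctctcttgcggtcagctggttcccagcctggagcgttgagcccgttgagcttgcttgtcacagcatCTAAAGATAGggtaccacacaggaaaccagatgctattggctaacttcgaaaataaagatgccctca
Slc2a5: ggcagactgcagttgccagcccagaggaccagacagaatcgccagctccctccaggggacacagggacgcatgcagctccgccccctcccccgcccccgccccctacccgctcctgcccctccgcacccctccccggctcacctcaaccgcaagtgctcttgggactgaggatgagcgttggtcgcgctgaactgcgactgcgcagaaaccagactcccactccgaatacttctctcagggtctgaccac
P2ry12 held GGAAGT with its first base 51 bases before the start, and P2ry13 held GAGGAA at 48 bases. Siglech held GGAAGT on the opposite strand at 156 bases, where it reads ACTTCC, and Cx3cr1 held the loose MEF2 letters at 67 bases. The 4 middle bases of that stretch include a G, so it does not match the MEF2 site itself. Slc2a5 and Crybb1 held none of these letters, and 1 of the 3 starts of Sall1 held GGAAGT at 180 bases. Thus 4 of the 9 windows of the 7 members with an entry held GAGGAA or GGAAGT, near the 36.7% of 32851 promoter windows of the same length that did. The loose MEF2 letters were in 1 of 9, against 3.2% of windows. The AP-1 letters TGANTCA were in 0 of the 9 and in 6.75% of all windows. Tmem119, Selplg and Gpr34 had no entry. Such matches describe letters only and do not show binding.

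The first question was how the members stood in each library. All 10 were highest in library 3 and lowest in library 2, each level being the CPM of a gene over all microglia of a library. P2ry12 was at 321, 274 and 764 CPM in library 1, 2 and 3, and P2ry13 at 86.9, 70.2 and 209 CPM. Among the other receptors, Cx3cr1 was at 904, 804 and 1669.9 CPM and Gpr34 at 355, 342 and 662 CPM. Both pairs of receptors thus had like levels in library 1 and 2 and a higher level in library 3.

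Tmem119 stood at 292, 233 and 1026 CPM, Siglech at 285, 233 and 729.9 CPM, and Selplg at 476, 408 and 1516 CPM. Slc2a5, the fructose transporter, stood at 31.9, 26.9 and 148 CPM, and Crybb1 at 140.4, 119 and 548 CPM. The transcription factor Sall1 was at 41.0, 37.7 and 113 CPM. Every member was therefore at least 1.5-fold apart between its highest and lowest library, as were 60.5% of all genes with at least 10 CPM in 1 of the libraries. In library 1 against library 3, 10 of 10 members were at least 1.5-fold lower (47.1% of all genes), from 1.85-fold for Cx3cr1 to 4.63-fold for Slc2a5. In library 2 against library 3 it was again 10 of 10 (50.3% of all genes), from 1.94-fold for Gpr34 to 5.50-fold for Slc2a5. In library 2 against library 1, 0 of 10 reached that limit (0.913% of all genes). The median gene was itself lower in the first 2 libraries, at −0.52 and −0.57 on the log2 scale against library 3, and the members' medians were −1.40 and −1.60.

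The libraries also differed in how many microglia carried Cst7. At least 2 Cst7 UMIs were found in 50.3% (95% interval 48.7% to 51.9%) of the microglia of library 1, in 61.4% (60.2% to 62.6%) of library 2 and in 0.376% (0.172% to 0.713%, 9 cells) of library 3. These intervals, like all others here, are exact and cover counting error only. In groups of 0, 1 and at least 2 Cst7 UMIs there were 1409, 404 and 1835 microglia in library 1, 1802, 700 and 3987 in library 2, and 2315, 67 and 9 in library 3. Cells with at least 2 Cst7 UMIs were deeper, with a median of 11765 UMIs against 5503 in cells with none.

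Within library 1 and within library 2, all 10 members had a lower share of UMIs in the cells with at least 2 Cst7 UMIs. Of the nucleotide receptors, P2ry12 was at 707, 535 and 172 CPM with 0, 1 and at least 2 Cst7 UMIs in library 1, at 775, 484 and 159 CPM in library 2, and at 769, 638 and 629.5 CPM in library 3. P2ry13 was at 165, 122 and 57.5 CPM in library 1, at 162, 122 and 48.2 CPM in library 2, and at 210.0, 192 and 114 CPM in library 3. For both genes the cells with 1 Cst7 UMI lay between the other groups in the first 2 libraries, and the last value of library 3 rests on 9 cells. Between the end groups P2ry12 was 4.11-fold lower (3.95 to 4.28) in library 1 and 4.86-fold lower (4.70 to 5.02) in library 2, and P2ry13 was 2.87-fold (2.66 to 3.1) and 3.36-fold (3.15 to 3.58) lower.

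The chemokine and lipid receptors had the smallest differences. Cx3cr1 was at 1412, 1157 and 710.4 CPM in library 1, at 1367, 1000.3 and 679 CPM in library 2, and at 1677, 1525 and 1421 CPM in library 3. Gpr34 was at 572, 493 and 269.9 CPM in library 1, at 656, 457 and 272 CPM in library 2, and at 668, 533 and 391 CPM in library 3. Both receptors were lower at each further Cst7 group in all 3 libraries, although the last group of library 3 holds few cells. Cx3cr1 was 1.99-fold lower (1.94 to 2.04) in library 1 and 2.01-fold (1.97 to 2.05) in library 2, and Gpr34 was 2.12-fold (2.04 to 2.20) and 2.42-fold (2.34 to 2.49) lower.

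Of the other surface genes, Tmem119 was at 604, 457 and 172 CPM in library 1, at 563, 397 and 155 CPM in library 2, and at 1030.2, 905 and 1106 CPM in library 3. Siglech was at 516, 456 and 191 CPM in library 1, at 548, 378 and 161 CPM in library 2, and at 732, 690.2 and 572 CPM in library 3. Selplg was at 946, 730.0 and 296 CPM, at 859, 624 and 303 CPM, and at 1522, 1352 and 1583 CPM. In the first 2 libraries these genes went the same way as the receptors, whereas in library 3 Tmem119 and Selplg were as high in the 9 cells with at least 2 Cst7 UMIs as in cells with none. Tmem119 was 3.50-fold lower (3.36 to 3.65) in library 1 and 3.62-fold (3.49 to 3.75) in library 2, Siglech 2.71-fold (2.59 to 2.82) and 3.41-fold (3.29 to 3.53), and Selplg 3.2-fold (3.09 to 3.30) and 2.84-fold (2.76 to 2.92).

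Slc2a5 differed most of all members in both libraries. It was at 81.6, 55.5 and 13.2 CPM in library 1, at 84.5, 55.4 and 13.4 CPM in library 2, and at 149.5, 115 and 95.4 CPM in library 3, which made it 6.20-fold lower (5.41 to 7.11) and 6.29-fold lower (5.67 to 6.99) in the first 2 libraries. Crybb1 was at 328, 244 and 68.2 CPM, at 316, 208 and 73.7 CPM, and at 551, 507 and 401 CPM, and was 4.81-fold lower (4.52 to 5.12) and 4.29-fold lower (4.09 to 4.50). The transcription factor Sall1 was at 71.4, 64.8 and 28.5 CPM, at 78.4, 53.2 and 28.5 CPM, and at 113, 102 and 105 CPM. It was 2.5-fold lower (2.24 to 2.80) in library 1 and 2.75-fold (2.51 to 3.01) in library 2, a smaller fold than for the transporter or the crystallin.

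**Figure D1:**
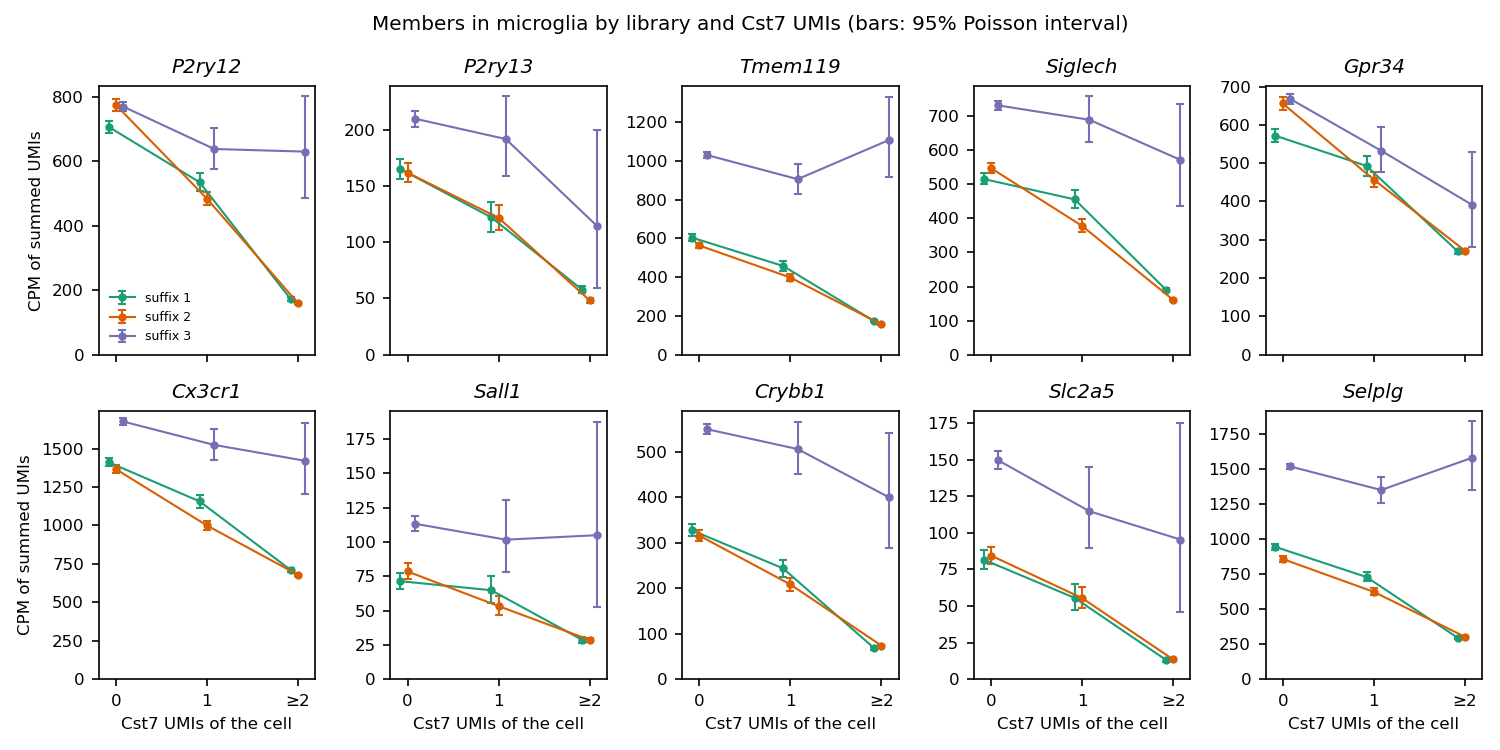
CPM of each member (vertical axis, linear from 0) in microglia with 0, 1 or at least 2 Cst7 UMIs (horizontal axis), with 1 line for each barcode suffix and bars for the exact 95% Poisson interval. The lines of suffix 1 and 2 drop together in every panel, for example P2ry12 from 707 to 172 and from 775 to 159 CPM, while suffix 3 keeps higher levels with wide bars at its 9 cells of the last group.

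The choice of members used this contrast, so the counts are set beside the background without reading more from them. Pooled over libraries, 10 of 10 members were at least 1.5-fold lower in cells with at least 2 Cst7 UMIs, as were 48% of 7617 genes. In library 1 it was 10 of 10 beside 30.3% of genes, and in library 2 it was 10 of 10 beside 39.3%. The median gene was itself lower, at −0.53 (log2) pooled, −0.30 in library 1 and −0.43 in library 2, and the members' medians were −1.93, −1.59 and −1.75. Monocyte markers summed to 2293 and 2933 CPM in cells with 0 Cst7 UMIs and to 2631 and 2592 CPM in cells with at least 2 of library 1 and 2, and T cell markers to 33.7 and 88.5 against 45.1 and 61.8 CPM, all 7 of each list being detected. Other marker lists were lower in the Cst7 group along with the members: neutrophil markers went from 490.2 to 212 CPM in library 1 and from 395 to 96.7 CPM in library 2, neuroblast markers from 61.8 to 26.5 and from 65.7 to 19.8 CPM, and astrocyte markers from 64.0 to 38.2 and from 70.7 to 35.7 CPM. Oligodendrocyte markers went from 412 to 414 CPM in library 1 and from 763 to 319 CPM in library 2. All 7, 5, 5 and 6 markers of these lists were detected, and their part in the members' levels was not tested. With 1 Cst7 UMI against 0, 0 of 10 members reached the limit in library 1 (4.16% of genes) and 0 of 10 in library 3 (11% of genes). In library 2, 3 of 10 did (2.53% of genes), namely P2ry12 at 1.60-fold, Crybb1 at 1.52-fold and Slc2a5 at 1.53-fold.

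A lower share of UMIs was not always a lower number of UMIs per cell, since cells with at least 2 Cst7 UMIs held more UMIs. Cx3cr1 went from 7.82 to 9.32 UMIs per cell in library 1 and from 7.17 to 8.35 in library 2, and was thus higher per cell in the Cst7 group. Gpr34 went from 3.17 to 3.54 in library 1 and from 3.44 to 3.34 in library 2. P2ry12 went from 3.91 to 2.25 and from 4.06 to 1.96 UMIs per cell. The nucleotide receptor was therefore lower by both measures, as was Slc2a5, which went from 0.452 to 0.173 and from 0.443 to 0.165. Sall1 hardly moved per cell, from 0.395 to 0.374 and from 0.411 to 0.351.

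Among microglia of a like depth, with 4000 to 8000 UMIs, all 10 members were lower by both measures. No share of all genes is given for this band, so the count is not read as particular to the members. Over all depths the median gene was itself lower, at −0.30 and −0.43 (log2) in library 1 and 2. The fold in CPM between these Cst7 groups was smaller there than over all depths, for each member in both libraries. With 0 and at least 2 Cst7 UMIs, P2ry12 was at 898 and 298 CPM in library 1, and at 885 and 262 CPM in library 2. Slc2a5 was at 98.9 and 18.0 CPM in library 1, and at 98.3 and 23.5 CPM in library 2. Cx3cr1 was then at 9.49 and 5.35 UMIs per cell with 0 and at least 2 Cst7 UMIs in library 1, and at 8.49 and 5.08 in library 2. Sall1 was at 0.476 and 0.220 UMIs per cell in library 1, and at 0.470 and 0.242 in library 2. Gpr34 was at 4.13 and 2.38 in library 1, and at 4.10 and 2.28 in library 2. At matched depth the 3 genes were thus lower per cell as well.

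Cells with no Cst7 UMI could also be compared between libraries. P2ry12 and Gpr34 were then near the level of library 3, at 1.09-fold (1.05 to 1.12) and 1.17-fold lower in library 1, and at 0.993-fold (0.965 to 1.02) and 1.02-fold (0.987 to 1.05) in library 2. Tmem119 was 1.71-fold lower in library 1 and 1.83-fold in library 2, Slc2a5 1.83-fold and 1.77-fold, Crybb1 1.68-fold and 1.74-fold, and Selplg 1.61-fold and 1.77-fold. In library 1 those 4 genes and Sall1 (1.59-fold) made 5 of 10 members at least 1.5-fold lower (25.1% of all genes), and in library 2 the same 4 made 4 of 10 (20.3% of all genes). The remaining members lay between, with Cx3cr1 1.19-fold and 1.23-fold lower in library 1 and 2, P2ry13 1.27-fold and 1.30-fold, and Siglech 1.42-fold and 1.34-fold. In library 2 Sall1 was 1.44-fold lower. Depth differed between these groups, with medians of 4937, 4660 and 6603 UMIs in library 1, 2 and 3. Between 4000 and 8000 UMIs, the same members passed the limit in library 1. In library 2 against library 3, P2ry13 (179 and 271 CPM) and Sall1 (83.0 and 130 CPM) also passed it at that depth. The share of all genes past the limit at that depth is not given. There Gpr34 was at 725 and 853 CPM, while Crybb1 lay closer than over all depths, at 375 and 609 CPM. Monocyte markers, 7 of 7 of them detected, moved with the libraries in these cells, at 2293, 2933 and 435.5 CPM in library 1, 2 and 3, and T cell markers were at 33.7, 88.5 and 1.11 CPM (7, 7 and 5 of 7 detected). Endothelial markers went the other way, at 12.9, 12.4 and 443 CPM. These sums do not show which markers carried them. Whether cells of other classes had a part in the difference was not tested.

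Among microglia with at least 4000 UMIs, the summed members were lower in cells that carried more Cst7. They levelled off above 500 CPM of Cst7 in library 1 and were lower at every step in library 2. In library 1 they summed to 5304 CPM in cells with 0 Cst7 UMIs, to 2862 in cells with up to 500 CPM of Cst7, to 1887 between 500 and 1000, to 1857 between 1000 and 2000, and to 1863 above 2000. In library 2 the same steps gave 4959, 2746, 2016, 1804 and 1679 CPM. Most of the difference in the members lay between 0 and 1000 CPM of Cst7. Depth also rose from the first step to the last, with medians from 6327 to 15053.5 UMIs in library 1 and from 6120 to 14153.5 in library 2. Its part in these steps was not tested. Crybb1 was lower at every step to the last, at 332, 147, 66.9, 58.5 and 41.0 CPM in library 1 and 312, 151, 102, 65.0 and 41.6 CPM in library 2. Gpr34 levelled off early, at 573, 336, 275, 262 and 262 CPM in library 2. In library 3, cells with up to 500 CPM of Cst7 had 6517 CPM of the members, against 7438 CPM with none.

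The next question was whether the members were lost together in the same cells. Each cell was thinned to 2000 UMIs by drawing without replacement, which gives every cell the same depth and leaves out 1035 microglia with fewer. Of the 10 members, a microglia with 0 Cst7 UMIs then showed a mean of 5.21, 5.25 and 6.26 in library 1, 2 and 3, and a microglia with at least 2 showed 2.72 and 2.63 in library 1 and 2. At least 5 members were detected in 66.9%, 67.4% and 87.4% of cells with 0 Cst7 UMIs, in 52.4%, 49.6% and 84.6% of cells with 1, and in 14.7% (13.1% to 16.4%) and 14% (12.9% to 15.1%) of cells with at least 2 in library 1 and 2. A microglia with no member seen was rare. At 2000 UMIs an expressed member can be missed, so this share does not measure complete loss. No member was seen in 1.78%, 3.48% and 0.144% of cells with 0 Cst7 UMIs, and in 8.09% and 7.60% of cells with at least 2 in library 1 and 2, whereas 40.1% (33.9% to 46.6%) of thinned macrophages showed none.

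**Figure D2:**
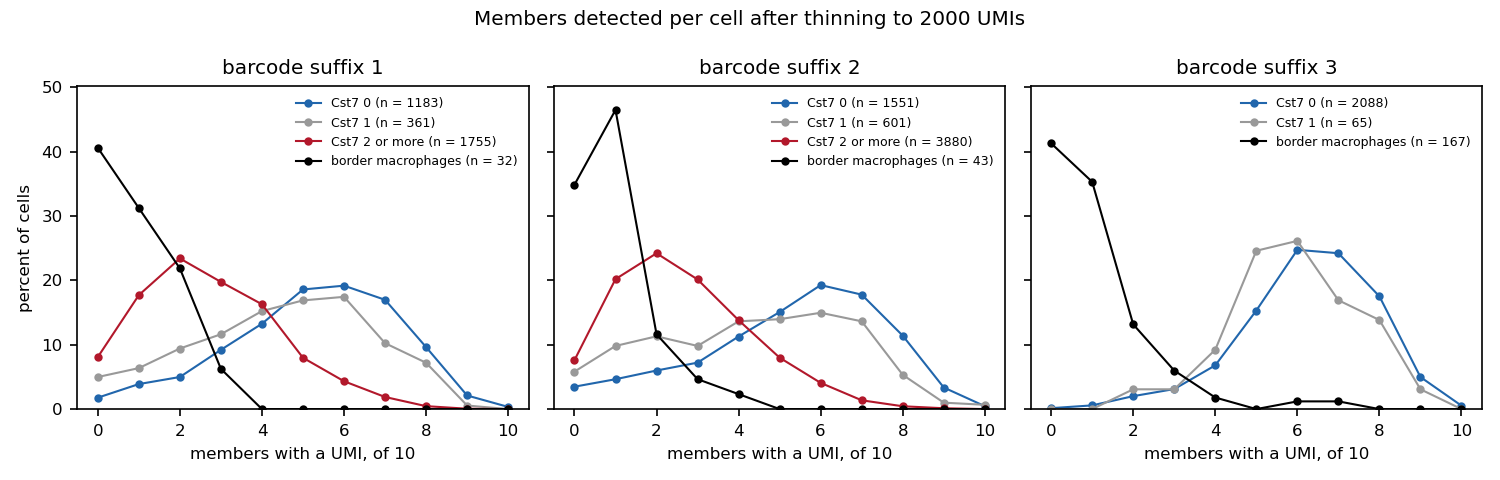
Share of cells in percent (vertical axis) by the number of the 10 members with at least 1 UMI after thinning to 2000 UMIs (horizontal axis), 1 panel for each barcode suffix, with a line for each Cst7 group of microglia and for border macrophages where at least 20 cells were left. The line of cells with at least 2 Cst7 UMIs peaks at 2 members in suffix 1 and 2, and that of cells with 0 Cst7 UMIs peaks at 6.

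Single members differed in how often they stayed detectable at this depth. Cx3cr1 had a UMI in 87.0%, 85.9% and 92.7% of thinned cells with 0 Cst7 UMIs and still in 69.1% and 67.8% of cells with at least 2 in library 1 and 2. P2ry12 was found in 68.7%, 69.4% and 74.7% with 0 Cst7 UMIs and in 28.4% and 25% with at least 2. Tmem119 was found in 65.2%, 61.6% and 81.9%, and then in 29.0% and 25%. So at this depth the fractalkine receptor was found in most Cst7 cells, and the marker genes P2ry12 and Tmem119 in fewer. Such shares depend on the level of each gene, so they do not rank how far a gene was kept. Before thinning, most cells with at least 2 Cst7 UMIs held these 2 genes as well. P2ry12 was then found in 68.4% and 64.3% of them in library 1 and 2, and Tmem119 in 67.0% and 62.5%. After thinning, Slc2a5 was found in 14.5%, 16.8% and 25% of cells with 0 Cst7 UMIs and in 3.19% and 2.96% of cells with at least 2. Before thinning, and pooled over libraries, P2ry12 was found in 84.1% of cells with 0 Cst7 UMIs (median 5503 UMIs), in 65.6% of the deeper cells with at least 2, and in 3.73% of oligodendrocytes, which should lack it (median 6096 UMIs). For Slc2a5 these shares were 41.5%, 12.6% and 0.414%. The shares in oligodendrocytes were far below those of either group of microglia. Free RNA was not measured, and its part in any of these shares was not tested.

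Thinned microglia without a UMI of one member were then compared with those that had it, for the other 9 members, which gives 90 ordered pairs. Pooled over libraries, the measured gene was at least 1.5-fold lower in 89 of 90 pairs, with a median of 2.15-fold, beside 14.1% of all genes measured the same way. In library 1 this held for 86 of 90 pairs (16.4% of genes) and in library 2 for 90 of 90 (14.5% of genes). In library 3 it held for 13 of 90 (7.41% of genes), with a median of 1.23-fold. The members thus went together in the 2 libraries with many Cst7 cells and far less in the third. They were chosen as lower where Cst7 was detected, so in libraries that mix the Cst7 groups this follows in part from the choice. The background genes were not so chosen, and the counts are a description only.

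The widest gap in library 1 and in library 2 was that of Slc2a5 by P2ry12. In cells without a P2ry12 UMI, Slc2a5 was 4.39-fold lower in library 1, 5.65-fold lower in library 2 and 1.28-fold lower in library 3. Crybb1 was 2.75-fold, 3.51-fold and 1.17-fold lower in the same cells, and Cx3cr1 1.93-fold, 2.03-fold and 1.33-fold. The order was not the same from the other side. In cells without a Cx3cr1 UMI, P2ry12 was 2.81-fold lower in library 1 and 3.13-fold lower in library 2. It was 2.42-fold and 2.90-fold lower in cells without Slc2a5, and 2.28-fold and 2.62-fold lower in cells without Crybb1. In library 3, cells without Cx3cr1 gave most of the pairs past the limit, with P2ry12 at 1.91-fold and Sall1 at 1.86-fold lower.

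Since the Cst7 groups differ in the members, pairs were also counted within them. Among cells with 0 Cst7 UMIs, 43 of 90 pairs were at least 1.5-fold lower in library 1 (16.5% of genes, median of the pairs 1.49-fold). In library 2 it was 67 of 90 (14.5% of genes, median 1.76-fold) and in library 3 it was 14 of 90 (7.81% of genes, median 1.23-fold). Among cells with at least 2 Cst7 UMIs it was 55 of 90 in library 1 (15.6% of genes, median 1.57-fold) and 63 of 90 in library 2 (8.53% of genes, median 1.66-fold). Joint variation of the members was thus also seen among cells of a single Cst7 group in the first 2 libraries. The group with at least 2 Cst7 UMIs still spans a range of Cst7 levels, along which the summed members differed as given above. Called doublets were kept. They were 7.74% and 8.30% of all cells of that group in library 1 and 2, and 4.76% and 7.94% of cells with 0 Cst7 UMIs. The part of either in these pair counts was not tested.

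**Figure D3:**
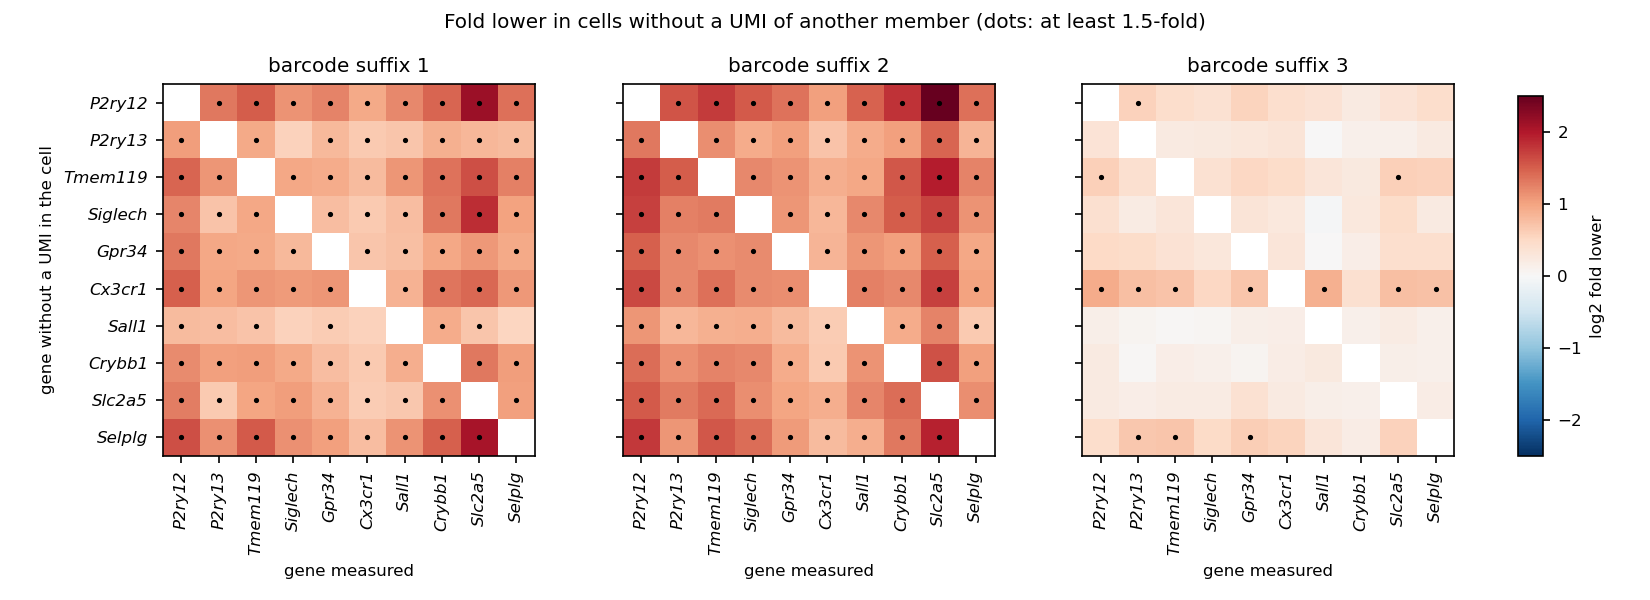
Log2 fold by which the gene of a column is lower in thinned microglia without a UMI of the gene of a row, 1 panel for each barcode suffix, with a dot where the fold is at least 1.5. Dots fill 86 of 90 squares in suffix 1, 90 in suffix 2 and 13 in suffix 3.

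Border macrophages live in the meninges and around vessels and share the C1q genes with microglia, so they serve as a comparison that the C1q rule does not separate. Of the 287 gated cells, 198 were in library 3, 40 in library 1 and 49 in library 2, and the within-library values of library 3 are therefore given first. There the members were lower by 4.63-fold (3.59 to 6.08) for P2ry13 to 28.1-fold (13.6 to 70.0, on 7 UMIs) for Slc2a5, and 10 of 10 were at least 1.5-fold lower (28.6% of all genes). P2ry12 was at 87.1 CPM against 764 CPM in microglia of the library, an 8.76-fold difference, and Sall1 at 9.01 against 113 CPM, a 12.5-fold difference. Tmem119 was at 45.1 against 1026 CPM, which is 22.8-fold lower (17.7 to 29.8). The members' median was −3.26 on the log2 scale and that of all genes −0.25.

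With a stricter gate (at least 5 markers and 0.5% of UMIs, 116 cells of library 3), set after the data were seen, the members parted further. Tmem119 was at 9.94 CPM on 8 UMIs, 103-fold lower (52.4 to 239) than in microglia, and Selplg at 59.7 CPM, 25.4-fold lower. Siglech stayed at 160.3 CPM and Gpr34 at 123.1 CPM, 4.55-fold and 5.38-fold lower. All 10 members were again past the limit (35.7% of all genes). Among the receptors of these macrophages, Cx3cr1 was at 188 CPM and P2ry13 at 49.7 CPM, 8.90-fold and 4.20-fold lower. Siglech, Gpr34 and P2ry13 had 129, 99 and 40 UMIs in these 116 cells, beside the 8 of Tmem119. Pooled over libraries, 10 of 10 members were lower in macrophages (11.7% of all genes), from 2.44-fold for P2ry13 to 15-fold for Slc2a5.

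In library 1 and 2, where few macrophages were gated, the Cst7 microglia lay between microglia without Cst7 and the macrophages for all 10 members. The share of all genes with this order is not given, so the order is not read as particular to the members. Tmem119 was at 76.1 and 65.2 CPM in macrophages of library 1 and 2, Siglech at 31.5 and 23.6 CPM, and Slc2a5 at 0 UMIs in both. Cx3cr1 in the same macrophages was at 359.6 and 348 CPM. These values were below those of the microglia with at least 2 Cst7 UMIs of the same library. The gated cells of library 1 and 2 were unlike those of library 3 in their markers. Macrophage markers summed to 2512 and 2077 CPM in library 1 and 2, against 6143 CPM in library 3. Monocyte markers summed to 17276.5 and 25580 CPM, against 7599 CPM, with 6, 4 and 4 of 7 detected. Whether these gated cells are border macrophages or monocyte-like cells was not tested. The macrophage markers, 7 of 9 detected, were at 148 and 113 CPM in those microglia, and at 113 and 97.0 CPM in microglia with 0 Cst7 UMIs. The marker list thus hardly differed between the Cst7 groups, from both of which the gate had taken the cells high in it. Of the microglial markers, Cst3 was at 36093 and 37995 CPM with 0 Cst7 UMIs and at 16201 and 17399 CPM with at least 2, while Trem2 was higher in the latter, at 3266 and 3426 against 2233 and 2278 CPM.

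The members were also read in 8 other gated classes. Selplg, which leukocytes use to roll on vessel walls, was at 449 CPM in 291 neutrophils, 331 CPM in 253 NK cells, 261 CPM in 1886 T cells and 234 CPM in 87 monocytes, and at 8.09 to 11.8 CPM in oligodendrocytes, endothelial cells, neuroblasts and astrocytes. Selplg was thus high in all 4 leukocyte classes and low in the classes of resident cells. Sall1, which is also known from neural progenitors, was at 51.5 CPM in 1896 neuroblasts (41.2, 46.0 and 64.9 CPM by library). Pooled microglia were no higher, at 49.8 CPM (41.0, 37.7 and 113 CPM by library), and only library 3 had more in microglia. Sall1 was at 29.1 CPM in 346 astrocytes and 28.1 CPM in 9664 oligodendrocytes. It was at 1.01 to 2.84 CPM in the endothelial cells, monocytes, neutrophils, T cells and NK cells. P2ry13 was at 30.3 CPM (20.4 to 43.2) in neutrophils, beside 1.07 to 3.88 CPM in the remaining 7 classes. Cx3cr1 was at 95.8 CPM in monocytes. P2ry12 and Tmem119 were at 4.43 to 15.5 CPM in all 8 classes, against 361 and 368 CPM in microglia.

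**Figure D4:**
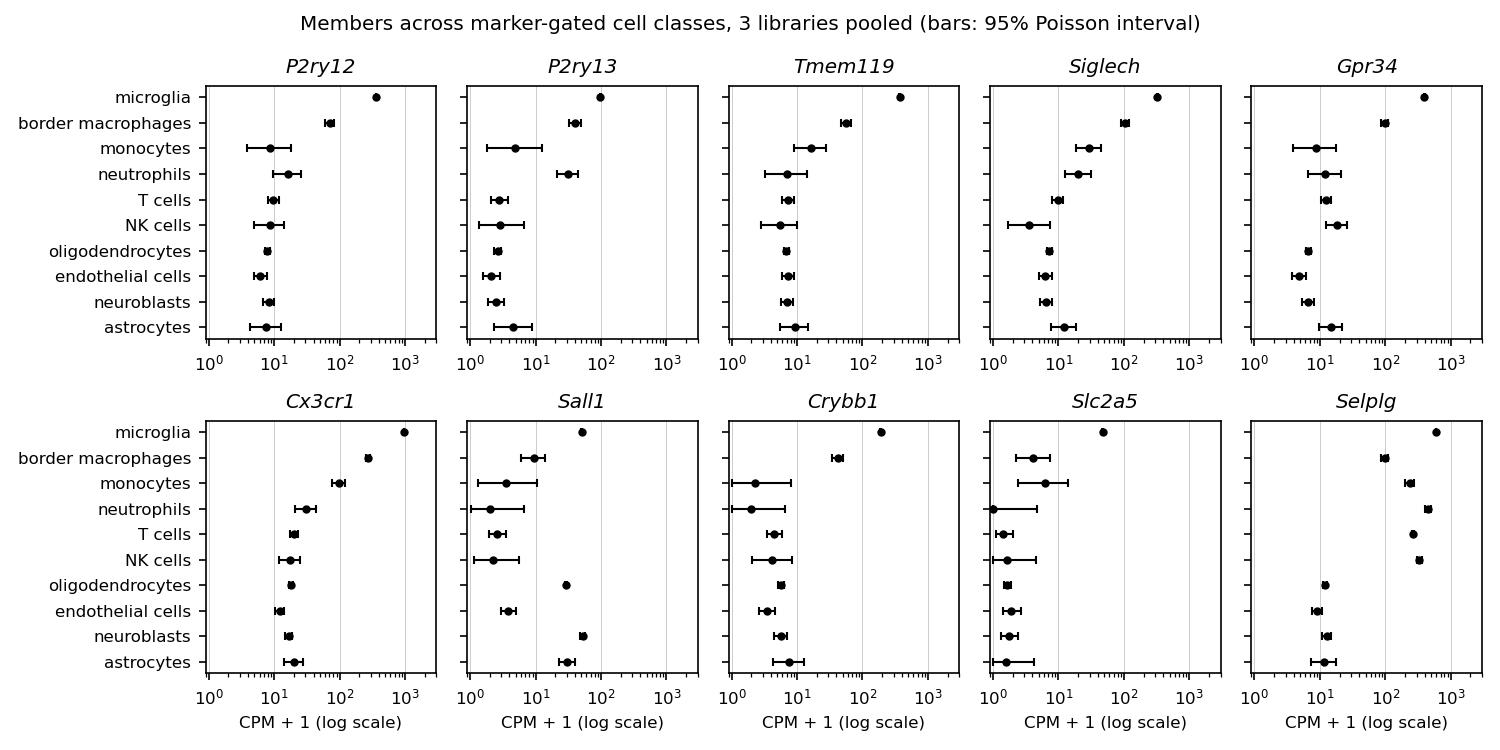
CPM + 1 of each member on a log axis (horizontal) in 10 cell classes (rows), 3 libraries pooled, with points for the level and bars for the exact 95% Poisson interval. Microglia lie at the right of each panel except that of Sall1, where neuroblasts (51.5 CPM) lie beside microglia (49.8 CPM). Selplg is also high in neutrophils (449 CPM).

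The rule on C1q decides which cells are counted, so levels on either side of its limit are given once. In 190 cells with 0.4% to 0.5% of UMIs from C1q, just outside, P2ry12 was at 137 CPM, Tmem119 at 119 CPM and Cx3cr1 at 396 CPM. In 162 cells with 0.5% to 0.6%, just inside, they were at 207, 208 and 655 CPM, and in 5315 cells with 2% to 3% they were at 404, 404 and 1041 CPM. The levels of these 3 genes were thus higher inside the limit than outside it, with no step to 0. Sall1 was at 40.9, 56.8 and 52.2 CPM over the same ranges.

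Other genes of the microglial programme were read from lists with the same fold limit in library 1 and 2. Over all genes, 30.3% were at least 1.5-fold lower and 5.36% higher in library 1, and 39.3% lower and 4.92% higher in library 2 (7088 and 7313 genes). Of 30 further homeostatic genes, 22 were at least 1.5-fold lower and 1 higher in the Cst7 group of library 1, and 20 lower and 2 higher in library 2, with a list median of −0.82 and −0.79 (log2) against −1.59 and −1.75 for the members and −0.30 and −0.43 for all genes. Upk1b, a uroplakin, was 10.5-fold and 11.3-fold lower, and Adgrg1, an adhesion receptor, 4.07-fold and 4.47-fold. The single higher gene of library 1 was Fcrls, an Fc receptor-like gene, at 1.51-fold, named after its value was seen, and in library 2 Fcrls (1.53-fold) and the lipid-sensing receptor Trem2 (1.5-fold) were higher. Trem2 in library 1 was within the limit at 1.46-fold higher.

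Of 19 transcription factors of microglia, 11 were lower and 1 was higher in library 1, and 10 were lower and 1 higher in library 2, with a list median of −0.68 and −0.71 (log2) against −0.30 and −0.43 for all genes. Maf was 2.37-fold and 2.67-fold lower, Smad3, which carries TGF-beta signals, 1.99-fold and 2.41-fold, and Etv5 2.06-fold and 1.98-fold. Bhlhe40 was 1.69-fold and 1.60-fold higher. The PU.1 gene Spi1 stayed within the limit at 1.10-fold and 1.09-fold lower, as did Irf8 at 1.12-fold and 1.05-fold, while Sall1 among the members was 2.5-fold and 2.75-fold lower. Mef2a, of the MEF2 family, was 2.18-fold and 2.12-fold lower. These last 3 were named after their values were seen.

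Genes that share function with the members went in both directions. Of 14 purinergic receptors and enzymes, 5 were measured at 10 CPM or more in either group, and in each library 4 were lower and 1 was higher, beside 30.3% and 39.3% of all genes lower. The list median was −0.81 and −0.80 (log2). Entpd1, the ectoenzyme CD39 that breaks down ATP and ADP, was 2.92-fold and 2.76-fold lower, the adenosine receptor Adora3 1.91-fold and 1.94-fold, and the ATP-gated channel P2rx7 1.65-fold and 1.78-fold. The channel P2rx4 was 1.5-fold and 1.52-fold higher, and was named after its value was seen.

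Of 12 ligands and partners of the members, 7 were measured, with 2 lower and 2 higher in each library, so that the share of lower genes did not exceed that of all genes (30.3% and 39.3%). The list median was −0.12 and −0.15 (log2), above that of all genes. Tgfbr1 was 2-fold and 2.07-fold lower, while the adaptor Tyrobp, through which Siglech signals, was 1.89-fold and 2.05-fold higher and the related adaptor Hcst 2.12-fold and 2.17-fold higher. Of 24 relatives of the members, 13 were measured in library 1, with 6 lower and 4 higher, and 12 in library 2, with 5 lower and 5 higher. The lower share in library 2 was near the 39.3% of all genes, the higher shares stood beside 5.36% and 4.92%, and the list median was −0.51 and −0.22 (log2). Siglece was 4.43-fold and 7.10-fold lower and the transcription factor Sall3 1.69-fold and 1.68-fold, whereas the hexose transporter Slc2a6 was 4.32-fold and 5.12-fold higher, Cd22 2.11-fold and 2.90-fold, and the proton-sensing receptor Gpr65 2.04-fold and 2.23-fold.

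Of 24 genes of activated microglia, 0 were lower and 18 were higher in library 1, and 0 were lower and 21 higher in library 2, beside 5.36% and 4.92% of all genes higher. The list median was 1.34 and 1.31 (log2). Spp1, which encodes osteopontin, was 8.02-fold and 8.08-fold higher, the growth factor Igf1 7.80-fold and 8.53-fold, and Ch25h, a cholesterol hydroxylase, 6.56-fold and 6.45-fold. Beside these, 12 of 15 genes that respond to tissue dissociation were lower in library 1 and 10 in library 2, with 0 higher, beside 30.3% and 39.3% of all genes lower, and they moved with the members. Their median was −1.08 and −0.65 (log2). Hspa1b was 9.03-fold and 5.75-fold lower, Hspa1a 6.23-fold and 4.16-fold, and Jun 2.63-fold and 2.08-fold. The part of dissociation in the members' levels was not tested.

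**Figure D5:**
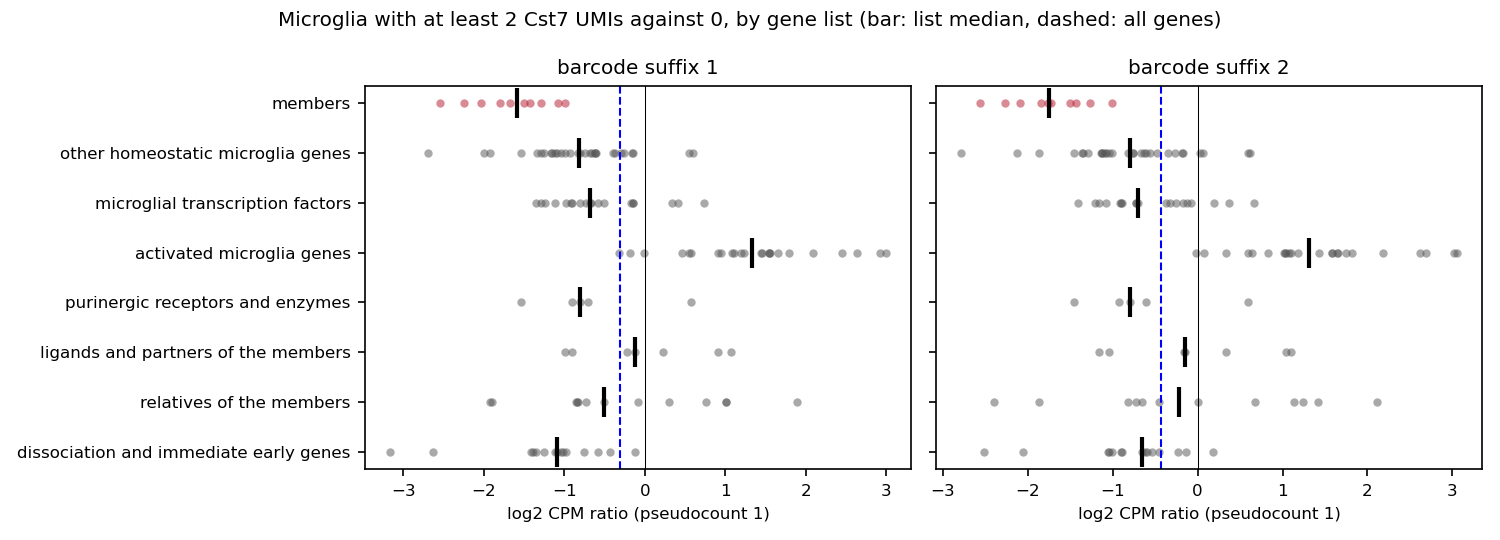
Log2 ratio of CPM (pseudocount 1) between microglia with at least 2 and with 0 Cst7 UMIs (horizontal axis) for each gene of the members and of 7 lists (rows), in suffix 1 and 2, with a bar at the list median and a dashed line at the median of all genes. The members' median lies at −1.59 and −1.75, left of the dashed lines at −0.30 and −0.43, and the activated genes lie mostly to the right of 0.

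The genes most like the members were sought over the 9 groups made by 3 libraries and 3 Cst7 groups, among 2134 genes with at least 50 CPM in microglia. The measure was Pearson r of log2(CPM + 10) with that of the summed members, as a description without a test, since the groups share libraries. Adgrg1 came first at r = 0.995, with 150.6, 111 and 37.0 CPM in library 1, 140.4, 100.3 and 31.4 CPM in library 2, and 249, 233 and 200.3 CPM in library 3 by Cst7 group. Also among the most alike were Vsir, which encodes the checkpoint protein VISTA, and Fam105a, each at 0.994, and Ikzf1, the transcription factor Ikaros, at 0.993. Among the members, r with their sum, which contains the gene itself, ran from 0.859 for Gpr34 to 0.996 for Crybb1, so that Gpr34 followed the common course least.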

How the data were processed

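The authors deposited 1 matrix of raw UMI counts per gene and cell. Per the labels and the methods, brain tissue was dissociated enzymatically, loaded on a droplet instrument and sequenced from the 3′ end. Reads were mapped to mm10 with Cell Ranger 3.1.0 (STAR, version not given in the sources used here) and down-sampled to even out the libraries, so low counts are thinner than in the full reads, and levels of different genes were not ranked. Seurat 3.1.1 is also named in the submitters' processing notes.

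The members and gene lists were chosen with earlier results of these data known. CPM were computed from summed UMIs of each group of cells, with exact Poisson 95% intervals for levels and folds and exact Clopper-Pearson intervals for shares (SciPy 1.17.1). Cells are not replicates and suffixes carry no condition, so no test was run, and the limit of 1.5-fold follows the methods of the study. Backgrounds use genes with at least 10 CPM in either group. Medians of log2 ratios use a pseudocount of 1. A count of 0 was set to 3 counts where a fold was taken against it. Thinned cells had 2000 UMIs. Doublets were called within each library (2 simulated per cell, 2000 variable genes, 30 components, assumed rate of 10%), and were kept and left out only as an alternative. They were 4.35% to 6.23% of kept cells, and 54.7% to 60.2% of simulated doublets lay above the threshold. Other classes needed at least 3 of their markers and 0.1% of UMIs. Named genes are the 10 members, up to 3 lower and 3 higher genes per list with the largest fold (at least 1.5, pooled over libraries, at least 20 CPM), and the 5 genes with the highest likeness. Results on some genes that the rule names are not reported here. Steps were tested on simulated data. The software was Matplotlib 3.10.9, NumPy 2.4.6, pandas 2.3.3, Python 3.11.15, scikit-image 0.26.0 and scikit-learn 1.9.0.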

Additional observations from a re-analysis of the deposited data

How the results depend on the processing

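All 10 members stayed at least 1.5-fold lower in the Cst7 group under the 19 alternatives tried, with single folds from 1.52 to 9.42, and in macrophages under 18 alternatives, with folds from 1.82 to 62.9. In the main analysis 48% of all genes were that much lower in the Cst7 group and 11.7% in macrophages. The lowest Cst7 folds came with the libraries counted equally (Selplg 1.52, Tmem119 1.53), where library 3 enters with 9 cells in the Cst7 group. None of these folds changed direction. The alternatives that changed only the fold limit or the minimum of the background leave every fold at its main value, so their folds could not move. Of the 190 Cst7 folds, however, 135 lay outside the counting interval of the main value, as did 47 of the 180 macrophage folds. The count of members that differ between libraries rested on library 3: it was 0 without that library and 10 without either of the others. With all libraries, 60.5% of all genes differed by this limit. For the 90 member pairs, 57 passed a limit of 2-fold, 13 passed in library 3 alone and 16 there with another draw of the thinning, an alternative added after seeing the data, and leaving out a library gave 79 to 90. Between 4000 and 8000 UMIs 67 pairs passed. The main pair count was 89 of 90 beside 14.1% of all genes, and that of library 3 alone stood beside 7.41%. For the other alternatives of this section the share of all genes is not given. Also added after seeing the data were the stricter macrophage gate and the counts within single libraries. No paired analysis was possible because the suffixes carry no replicate numbers and there is 1 library per condition. In macrophages of library 1 and 2, where Slc2a5 had 0 UMIs, depth limits what can be seen.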
